A study of Mus musculus with 12 samples.

Results

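The Hox genes of the 4 mouse clusters were followed in mouse embryonic fibroblasts (MEFs) that carried wild-type or mutant Rb1, the gene of the retinoblastoma protein. Members were all Hoxa, Hoxb, Hoxc and Hoxd genes with a probe set annotated to that symbol alone, and where a gene had several, the probe set with the highest mean over the 12 arrays was used. This gave 37 of the 19938 genes measured, of which 10 lie in HoxA on chromosome 6, 9 in HoxB on chromosome 11, 9 in HoxC on chromosome 15 and 9 in HoxD on chromosome 2. Hoxb8 had only a probe set that it shares with Hoxb7 and is not among the 37. Each RNA sample was run on its own Affymetrix whole-transcript array (Mouse Gene 1.0 ST), and the samples form 4 groups of 3: Rb1 +/+ cells matched to the S/S mutants (S wild type), Rb1 S/S cells, Rb1 +/+ cells matched to the L/L mutants (L wild type), and Rb1 L/L cells. All 12 cultures were taken to passage 4 in DMEM with 10% serum and were then arrested in 0.1% serum for 72 h before TRIzol extraction. The nature of the S and L alleles is not given in the labels, nor is the strain or embryonic age of the cells or whether arrays of a group came from separate embryos, so the p-values below measure only the spread between these samples. Values are log2 RMA intensities, and a difference of 1 on this scale is a change in signal by a factor of 2.

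Hox genes encode homeodomain transcription factors that set position along the body axis. Within a cluster the genes stand in the order in which they are used, so that low paralogue numbers are used toward the head and high numbers toward the tail, and in the limb the high-numbered HoxA and HoxD genes are used in succession from the shoulder or hip to the digits. Fibroblasts keep much of this pattern in culture, and the Hox genes that a culture expresses reflect the part of the embryo from which its cells came. Polycomb complexes hold unused Hox genes silent, trithorax complexes keep used ones active, and TALE homeodomain proteins of the Pbx, Meis and Pknox families bind DNA together with Hox proteins.

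The labelled cell type was checked first. All 13 listed fibroblast markers, collagens, Pdgfra and Vim among them, were above background on all 12 arrays, and the mean over that list was 11.3 to 11.67 on each array. Background was set on each array at the 95th percentile of 1203 olfactory, vomeronasal and trace-amine receptor genes, which fibroblasts do not use, and it lay between 6.11 and 6.66. Array 1 of the S wild type stood apart: the interquartile range of its values was 3.10 against 3.39 to 3.60 on the others, its correlation with other arrays over all probe sets was 0.955 to 0.974, and its background was the highest. Array 1 of the L wild type and array 1 of L/L carried RNA of Y-linked genes. Rb1 itself, whose transcript level is no check of an allele of unstated kind, read 8.34, 8.83 and 8.89 in the S wild type, 9.72, 9.58 and 9.35 in S/S, 9.23, 9.05 and 8.61 in the L wild type and 9.39, 9.36 and 9.23 in L/L. The S/S arrays lay above their wild type and the L/L arrays overlapped theirs at 9.23, and neither difference passed the test (0.87, adjusted p = 0.0976, and 0.36, adjusted p = 1).

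At this background level, Hox probe sets from the anterior to the posterior part of the clusters read above it. Of 37 members, 32 were above background on all 3 arrays of every group, or 9 of 10 in HoxA, 8 of 9 in HoxB, 7 of 9 in HoxC and 8 of 9 in HoxD. Over all genes 63.1% were above background on the 12 arrays. Members above background in all groups ran from Hoxa2 to Hoxa13, from Hoxb1 to Hoxb9, from Hoxc4 to Hoxc12 and from Hoxd3 to Hoxd13. Hoxb13, Hoxc11 and Hoxd1 were above background in no group, while Hoxa3 and Hoxc13 missed only through array 1 of the S wild type (6.46 and 6.53 against that array's background of 6.66). The same rule also put Myod1, a muscle marker, Krt8, an epithelial one, and Sox10, a neural one, above background on all 12 arrays. Passing it therefore does not by itself show that the fibroblasts use a gene. At the stricter 99th percentile of the receptor genes the count was 18, and Hoxa2, Hoxa13, Hoxc4 and Hoxc12 were not among them. Because probe sets differ in how strongly they bind, the height of 1 gene is not compared with that of another here, and a member near background may be used in some of the cells. In such bulk samples, fewer cells that use a gene and less RNA per cell cannot be told apart.

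**Figure D1:**
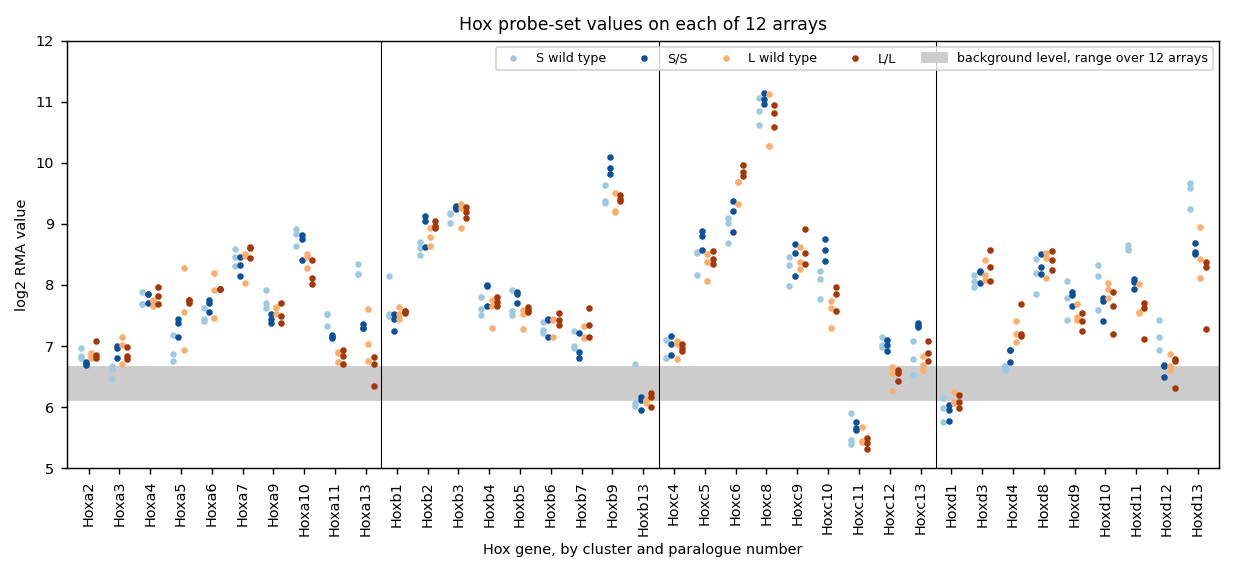
Log2 RMA value of each Hox gene (x axis, ordered by cluster and paralogue number) on each of the 12 arrays, coloured by group, with the range of the background level over the arrays (6.11 to 6.66) as a grey band. Hoxb13, Hoxc11 and Hoxd1 lie in or under the band in every group apart from a single Hoxb13 array, and Hoxa13 and Hoxd13 cover the widest ranges.

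At the anterior end, Hoxa2, a gene of the hindbrain and the neck, read 6.97, 6.84 and 6.81 in the S wild type, 6.74, 6.72 and 6.69 in S/S, 6.88, 6.83 and 6.80 in the L wild type and 6.81, 7.08 and 6.86 in L/L. The S/S arrays lay below their wild type by a narrow margin and those of the L set overlapped. Hoxb1, which patterns a hindbrain segment, read 8.15, 7.49 and 7.53 in the S wild type, 7.25, 7.45 and 7.52 in S/S, 7.64, 7.44 and 7.52 in the L wild type and 7.57, 7.57 and 7.54 in L/L. Its highest value was that of the array that stood apart, and the groups overlapped. Hoxc4 read 6.81, 6.81 and 7.10 in the S wild type, 7.16, 6.86 and 7.03 in S/S, 7.04, 7.08 and 6.78 in the L wild type and 7.04, 6.96 and 6.92 in L/L. Hoxd3 read 8.16, 7.96 and 8.06 in the S wild type, 8.23, 8.04 and 8.21 in S/S, 8.08, 8.41 and 8.17 in the L wild type and 8.06, 8.58 and 8.29 in L/L. Hoxc4 and Hoxd3, genes of the cervical region, overlapped in both sets. The smallest range over the 12 arrays was that of Hoxa4 at 0.32, and the widest were those of Hoxd13 at 2.39, Hoxa13 at 2.0 and Hoxd11 at 1.54. The pooled SD within groups had a median of 0.178 over the members and 0.167 over all genes, and that of Hoxd13 was 0.39.

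The posterior HoxA and HoxD genes were on average highest in the S wild type, though Hoxd9 was not (7.76 against 7.79 in S/S). Averaged over the 9 members of HoxA and HoxD with paralogue numbers 9 to 13, each gene taken as its deviation from its own mean over the 12 arrays, the S wild type stood at 0.39, 0.43 and 0.52. The same average was -0.11, 0.06 and 0.04 in S/S, -0.21, -0.16 and 0.06 in the L wild type and -0.31, -0.56 and -0.15 in L/L. The S wild-type arrays were above all 9 others. The 7 HoxB and HoxC members of the same numbers gave a different order, -0.01, -0.04 and 0.09 in the S wild type, 0.17, 0.24 and 0.34 in S/S, -0.14, -0.10 and -0.30 in the L wild type and -0.15, -0.04 and -0.05 in L/L, with S/S highest.

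**Figure D2:**
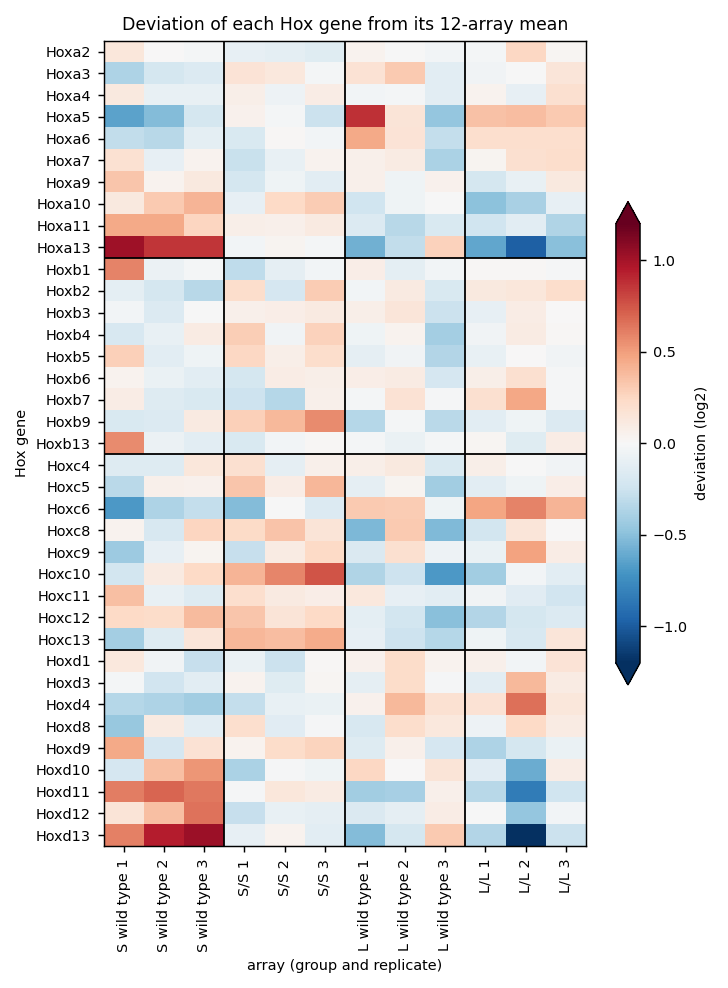
Deviation of each Hox gene (rows, by cluster and paralogue number) from its own mean over the 12 arrays, in log2 units, on each array (columns, by group), with red for higher and blue for lower values. The S wild type is red at Hoxa13 and Hoxd11 to Hoxd13, array 2 of L/L is blue at Hoxa13, Hoxd11 and Hoxd13, and array 1 of the L wild type is red at Hoxa5.

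Promoters are shown as examples for Hoxa13, Hoxd13 and Hoxd12, which are among the 7 members whose S/S arrays all lay below every array of their wild type. Each sequence covers 250 bases before and 50 after the annotated start (RefSeq, GRCm38.p6), and capitals mark matches on either strand to the GC box GGGCGG, which Sp1-type factors can bind, and to CCAAT, which NF-Y can bind.
Hoxa13, chr6:52260831-52261130, minus strand: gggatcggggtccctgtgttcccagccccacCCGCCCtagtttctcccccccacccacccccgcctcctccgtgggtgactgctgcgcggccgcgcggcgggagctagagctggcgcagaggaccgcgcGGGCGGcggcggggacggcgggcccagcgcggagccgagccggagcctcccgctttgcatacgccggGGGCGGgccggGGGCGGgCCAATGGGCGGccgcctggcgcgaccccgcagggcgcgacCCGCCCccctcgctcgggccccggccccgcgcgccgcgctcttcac
Hoxd13, chr2:74667975-74668274, plus strand: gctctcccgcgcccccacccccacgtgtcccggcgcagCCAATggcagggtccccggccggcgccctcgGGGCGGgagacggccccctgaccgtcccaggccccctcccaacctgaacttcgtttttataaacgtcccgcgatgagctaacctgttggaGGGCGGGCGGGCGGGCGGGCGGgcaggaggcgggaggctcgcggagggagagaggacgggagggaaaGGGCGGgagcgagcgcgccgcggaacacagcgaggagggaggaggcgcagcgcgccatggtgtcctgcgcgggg
Hoxd12, chr2:74674763-74675062, plus strand: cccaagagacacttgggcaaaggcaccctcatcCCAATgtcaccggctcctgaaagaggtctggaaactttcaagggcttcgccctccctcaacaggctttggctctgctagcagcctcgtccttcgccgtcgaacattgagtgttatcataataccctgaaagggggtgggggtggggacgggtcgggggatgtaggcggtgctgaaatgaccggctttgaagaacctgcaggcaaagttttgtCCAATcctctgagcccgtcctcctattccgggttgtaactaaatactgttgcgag
The Hoxa13 window held 45 CpG dinucleotides, 6 GC boxes and 1 CCAAT, the Hoxd13 window 37 CpG, 7 GC boxes (overlapping ones counted) and 1 CCAAT, and the Hoxd12 window 13 CpG, 0 GC boxes and 2 CCAAT. The median over all promoters was 7 CpG. Of 23 promoters found for 21 members, 9 held a GC box against 35.7% of 32851 promoters of the same length, and 14 held CCAAT against 37.4%. These counts cover mostly HoxA and HoxD. Of HoxB and HoxC only Hoxb1, Hoxb4 and Hoxc4 had a promoter entry, and Hoxb9, Hoxc10 and Hoxc13 had none. The E2F letters TTTCGCGC or TTTGGCGC, searched because the retinoblastoma protein binds E2F factors, were in 0 of 23 and in 0.8% of all. A match is a description of letters and no evidence of binding.

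The comparison of S/S with its matched wild type asked how Hox expression differed in the S/S mutant. Hoxa13 and Hoxd13, the most posterior members of HoxA and HoxD, were 1.88-fold and 1.89-fold lower in S/S than in its wild type, and the HoxB and HoxC members Hoxb9, Hoxc10 and Hoxc13 were higher, but after adjustment over all genes 0 of 37 members passed (limma, Benjamini-Hochberg), where 0.12% of all genes did. At an unadjusted p under 0.05 there were 12 of 37 (32.4%, against 10.1% of all genes). The 3 arrays of both groups did not overlap for 14 of 37 members (37.8%, against 11.8% of all genes), 7 of them higher (5.49% of all genes) and 7 lower (6.29% of all genes). The median difference was 0.09 over the members (0.03 and 0.04 without array 2 or 3 of the S wild type) and -0.04 over all genes, and 6 members against 2.86% of all genes differed by more than 0.5 (log2).

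Hoxa13, which patterns the hand and foot plates and the genital region, read 8.34, 8.18 and 8.18 in the S wild type and 7.29, 7.36 and 7.30 in S/S. The S/S arrays were all lower and lay close together. The difference was -0.91 (SE 0.18, adjusted p = 0.0965), the smallest p among the members, and it was -0.86 without array 1 of the S wild type. Hoxd13, which acts in the digits together with Hoxa13, read 9.24, 9.58 and 9.67 in the S wild type and 8.54, 8.68 and 8.51 in S/S. All S/S arrays were lower, with a difference of -0.92 (SE 0.26, adjusted p = 0.268). Hoxd12 read 6.94, 7.14 and 7.43 in the S wild type and 6.5, 6.69 and 6.67 in S/S, Hoxd11 read 8.57, 8.65 and 8.59 against 7.94, 8.09 and 8.05, and Hoxa11 read 7.52, 7.52 and 7.33 against 7.14, 7.13 and 7.18. These neighbours, of which the paralogue 11 genes shape the forearm and lower leg, were each below their wild type on every array, with differences of -0.55 (SE 0.15, adjusted p = 0.25), -0.58 (SE 0.16, adjusted p = 0.256) and -0.31 (SE 0.10, adjusted p = 0.348). Over the 9 posterior HoxA and HoxD members the median difference was -0.38, 8 of 9 were negative (42.4% of all genes were positive) and 6 of 9 did not overlap, all 6 lower. Without array 1 of the S wild type that median was -0.59.

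On the other side, Hoxb9, a gene of the thoracic region, read 9.35, 9.37 and 9.64 in the S wild type and 9.82, 9.92 and 10.10 in S/S. All S/S arrays were higher, by 0.49 (SE 0.12, adjusted p = 0.193). Hoxc10, which is used in the lumbar region and the hindlimb, read 7.77, 8.10 and 8.23 in the S wild type and 8.40, 8.58 and 8.75 in S/S. These groups did not overlap either, and the difference was 0.54 (SE 0.16, adjusted p = 0.284). Hoxc13, a gene of the tail end and of hair and nail, read 6.53, 6.78 and 7.08 in the S wild type, 1 of these under background, and 7.34, 7.31 and 7.38 in S/S. The S/S arrays were higher and close together, and the difference was 0.55 (SE 0.14, adjusted p = 0.199). Hoxa3, a gene of the throat and neck, read 6.46, 6.62 and 6.67 in the S wild type against 7.0, 6.96 and 6.81 in S/S, a difference of 0.34 (SE 0.12, adjusted p = 0.395) without overlap. Hoxb2, a hindbrain gene, read 8.71, 8.61 and 8.49 in the S wild type and 9.04, 8.62 and 9.13 in S/S, with an overlap at array 2 of S/S. Its difference was 0.32 (SE 0.13, adjusted p = 0.452). Of the 7 posterior HoxB and HoxC members, 5 were positive with a median of 0.19, and 3 did not overlap. Hoxb13, a gene of the tail bud and the prostate, read 6.71, 6.07 and 6.02 in the S wild type and 5.96, 6.11 and 6.16 in S/S, at or near background. Its difference was -0.19, and it was 0.03 without array 1 of the S wild type.

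Most anterior and middle members had small positive differences. The 11 members with paralogue numbers 1 to 4 had a median difference of 0.11 in S/S with 8 positive, and the 10 with numbers 5 to 8 a median of 0.18, also with 8 positive. Hoxc5 and Hoxd4 were higher without overlap by 0.34 and 0.22, as was Hoxb3 by 0.15, and Hoxa2 and the more posterior Hoxa9 were lower without overlap, with differences of -0.16 and -0.29. None of these passed over all genes. The absence of adjusted calls did not hold under every setting. Hoxa13 passed when the S set was fitted alone (adjusted p = 0.0387), with array quality weights (0.0224), and when array 1 or array 3 of the L wild type, which share the estimate of the spread, was left out (0.0392 and 0.0233). Hoxb9 (0.0228) and Hoxc13 (0.0253) passed with array quality weights, where 2.08% of all genes did. The count of 7 members higher without overlap was 11, 12 and 11 without array 1 or 3 of the S wild type or array 1 of S/S. With fewer arrays more genes do not overlap, and in these settings 24.6%, 22.2% and 20.6% of all genes did not, in either direction. The count was 17 without both arrays numbered 1 of the S set, where 35.9% of all genes did not overlap.

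**Figure D3:**
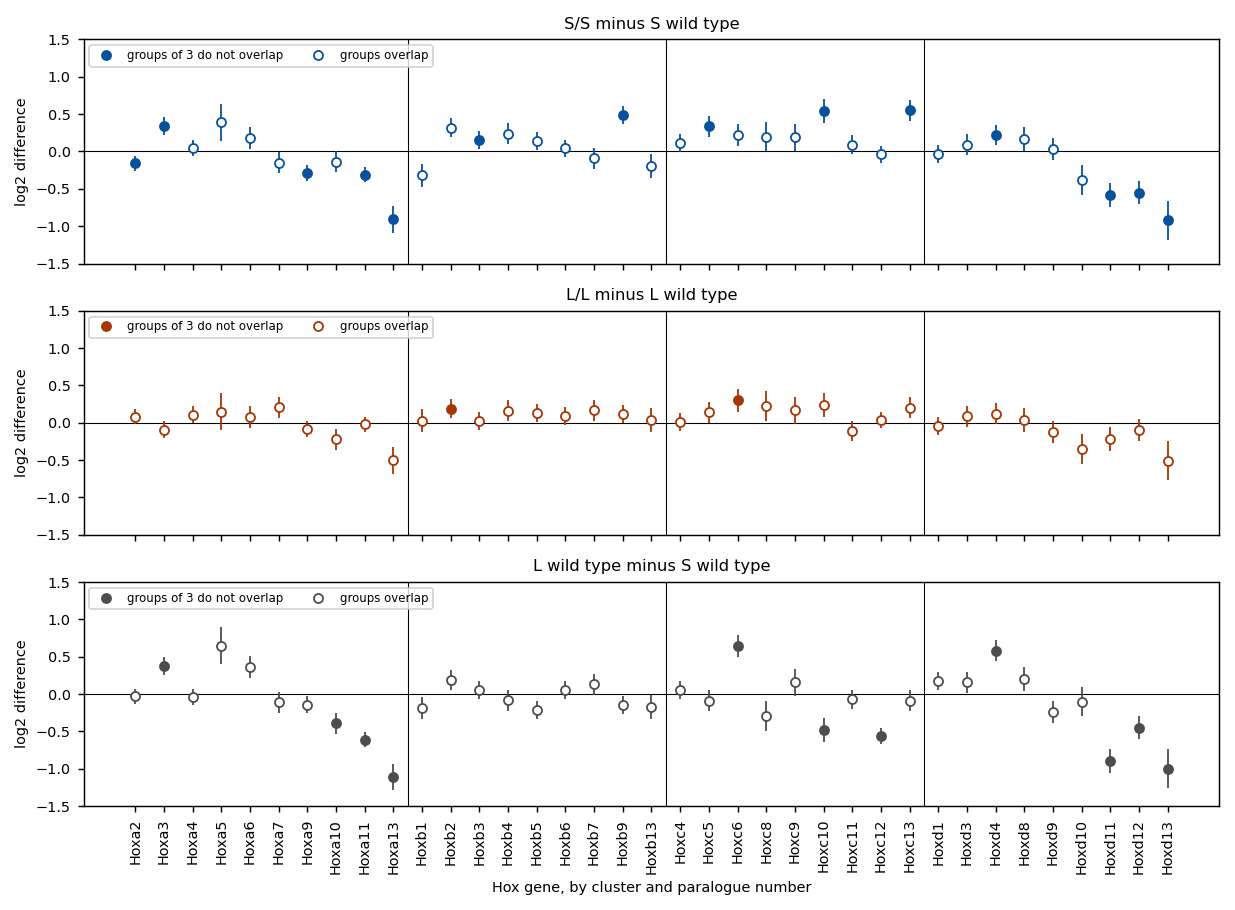
Log2 difference of each Hox gene (x axis, by cluster and paralogue number) in S/S minus S wild type (top), L/L minus L wild type (middle) and L wild type minus S wild type (bottom), with bars of 1 SE and filled points where the arrays of the groups do not overlap. Filled points number 14, 2 and 11, and the top and bottom panels share the S wild-type arrays.

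The same question was asked of L/L against its matched wild type. The posterior HoxA and HoxD genes were below the L wild type on average and the HoxB genes above it, by 0.12 in the median, and 0 of 37 members passed (limma, Benjamini-Hochberg), where 0.0401% of all genes did. At an unadjusted p under 0.05 there was 1 of 37, Hoxa13, against 3.27% of all genes. The groups did not overlap for 2 members (5.41%, against 14.8% of all genes), Hoxb2 and Hoxc6, both higher (9.71% of all genes), and for 0 lower (5.1% of all genes).

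Hoxa13 read 6.75, 7.03 and 7.6 in the L wild type and 6.70, 6.34 and 6.82 in L/L. The wild-type arrays were spread over more than the difference, and array 1 of the wild type lay within the L/L range. The difference was -0.50 (SE 0.18, adjusted p = 1), and it was -0.27 without array 3 of the L wild type. Hoxd13 read 8.12, 8.43 and 8.95 in the L wild type and 8.29, 7.28 and 8.38 in L/L. The groups overlapped, array 2 of L/L was lowest by far, and the difference of -0.51 (SE 0.26, adjusted p = 1) was -0.16 without it and -0.28 without array 3 of the L wild type. Hoxd11 read 7.54, 7.55 and 8.01 against 7.62, 7.11 and 7.71 in L/L, with a difference of -0.22. Hoxd10 read 8.04, 7.79 and 7.94 against 7.65, 7.19 and 7.88, with a difference of -0.35. Hoxa10, which acts in the thigh and the lumbar region, read 8.27, 8.46 and 8.51 against 8.02, 8.12 and 8.41, with a difference of -0.22, and all these groups overlapped. Single arrays carried much of these values. Hoxd11 was at -0.04 and Hoxd10 at -0.15 without array 2 of L/L, Hoxd11 at -0.07 without array 3 of the L wild type, and Hoxd11 and Hoxa10 both at -0.34 without array 3 of L/L. Hoxa10 was at -0.14 without array 1 of L/L. In the S set, Hoxd10 read 7.59, 8.15 and 8.32 in the wild type and 7.41, 7.78 and 7.74 in S/S, and Hoxa10 read 8.63, 8.83 and 8.92 against 8.41, 8.75 and 8.82, both with overlap. All 9 posterior HoxA and HoxD members were negative, with a median of -0.22 that was -0.13 without array 2 of L/L and -0.34 without its array 3.

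Among the higher members, Hoxc6, a gene of the forelimb level and the thorax, read 9.69, 9.68 and 9.33 in the L wild type and 9.85, 9.97 and 9.79 in L/L. The L/L arrays were all higher, by 0.30 (SE 0.15, adjusted p = 1). Hoxb2 read 8.79, 8.93 and 8.64 against 8.94, 8.96 and 9.04, a difference of 0.19 with no overlap, though the groups nearly touched. Hoxa7 read 8.47, 8.51 and 8.03 against 8.44, 8.60 and 8.62, Hoxc10 read 7.63, 7.74 and 7.30 against 7.57, 7.96 and 7.86, and Hoxc13 read 6.84, 6.69 and 6.60 against 6.89, 6.75 and 7.08. These overlapped, with differences of 0.21, 0.24 and 0.20. Without array 3 of the L wild type, Hoxc6, Hoxb2, Hoxa7 and Hoxc10 were at 0.18, 0.12, 0.06 and 0.11, and Hoxc13 was at 0.11 without array 3 of L/L. In the S set Hoxa7 read 8.59, 8.31 and 8.45 in the wild type and 8.14, 8.32 and 8.45 in S/S, and Hoxc6 read 8.86, 9.37 and 9.21 in S/S, with overlap for both. Hoxb13 read 6.12, 6.06 and 6.12 against 6.17, 6.0 and 6.23, at background. The members that led in S/S overlapped in the L set. Hoxb9 read 9.19, 9.51 and 9.21 in the L wild type and 9.40, 9.48 and 9.37 in L/L. Hoxa3 read 7.01, 7.15 and 6.71 against 6.79, 6.83 and 6.98. Hoxd12 read 6.61, 6.67 and 6.87 against 6.78, 6.32 and 6.75, and Hoxa11 read 6.91, 6.74 and 6.89 against 6.83, 6.94 and 6.71. All 9 HoxB members and 8 of 9 HoxC members were positive, where 55.9% of all genes were. The 2 members higher without overlap became 6, 7, 4 and 5 without array 1 or 2 of the L wild type or array 1 or 2 of L/L, settings in which 25.7%, 22.7%, 24.1% and 23.6% of all genes did not overlap in either direction. The 0 lower members became 3, 1 and 1 without array 1, 2 or 3 of the L wild type and 1 and 5 without array 1 or 3 of L/L, where 26.6% (array 3 of the L wild type) and 25% (array 3 of L/L) of all genes did not overlap.

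The difference between the mutant effects was tested directly. In the S/S effect minus the L/L effect 0 of 37 members passed (limma, Benjamini-Hochberg), where 0.015% of all genes did, and 2 members, Hoxa3 at 0.43 (SE 0.17) and Hoxb9 at 0.38 (SE 0.17), had an unadjusted p under 0.05, against 6.5% of all genes. For Hoxa13 the difference of the effects was -0.41 with a 95% interval from -0.96 to 0.14 (adjusted p = 0.785). For Hoxd13 it was -0.41 with an interval from -1.21 to 0.39 (adjusted p = 0.824). With 1 array left out the Hoxa13 value ran from -0.65 (without array 3 of the L wild type) to -0.22 (without its array 1), and the Hoxd13 value from -0.76 (without array 2 of L/L) to -0.21 (without its array 3). These intervals hold 0 as well as differences as large as the S/S effect itself, so the arrays neither separate the mutants at the posterior members nor show that they act alike.

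Between the wild types, which share the Rb1 +/+ genotype, some Hox genes passed the test. In the L wild type 5 members were lower and 2 higher than in the S wild type after adjustment over all genes (limma, Benjamini-Hochberg), 7 of 37 or 18.9% against 8.71% of all genes (5.17% lower and 3.54% higher). The groups did not overlap for 11 members (29.7%, against 27.6% of all genes), 8 lower (16.1% of all genes) and 3 higher (11.5% of all genes). The difference was -1.11 for Hoxa13 (SE 0.18, adjusted p = 0.00409), which was lower in the L wild type, and -0.61 for Hoxa11 (SE 0.10, adjusted p = 0.00409), the latter reading 6.91, 6.74 and 6.89 in the L wild type. It was -0.90 for Hoxd11 (SE 0.16, adjusted p = 0.00613) and -1.0 for Hoxd13 (SE 0.26, adjusted p = 0.0328). None of these 4 overlapped between the wild types, though array 3 of the L wild type read closest to the S wild type in Hoxa13, Hoxd11 and Hoxd13.

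Hoxc12, a posterior gene of HoxC, read 7.01, 6.99 and 7.15 in the S wild type and 6.65, 6.55 and 6.27 in the L wild type. It was lower in the L wild type, with a difference of -0.56 (SE 0.11, adjusted p = 0.0108). It read 7.10, 6.92 and 7.01 in S/S and 6.42, 6.56 and 6.61 in L/L, so that each mutant overlapped its own wild type. Hoxc6 read 8.69, 9.01 and 9.09 in the S wild type and was higher in the L wild type by 0.64 (SE 0.15, adjusted p = 0.0231). Hoxd4, a gene of the neck, read 6.68, 6.65 and 6.60 in the S wild type and 7.07, 7.41 and 7.20 in the L wild type, without overlap. It was higher in the L wild type by 0.58 (SE 0.14, adjusted p = 0.0245), and it read 6.73, 6.93 and 6.94 in S/S and 7.19, 7.68 and 7.16 in L/L. Of the 16 members with numbers 9 to 13, 15 were lower in the L than in the S wild type, with a median of -0.31 against -0.07 over all genes. Most genes were lower there, as only 38% of all genes had a positive difference. The count of 7 was 17 with array quality weights (32.7% of all genes passed), 4 without array 2 of the L wild type (3.58% of all genes) and 3 without both arrays that carry Y-linked RNA (1.52% of all genes), where Hoxd11 was among those lost (adjusted p = 0.0538). The 3 members higher without overlap became 7, 5, 5 and 8 without array 1 or 3 of the S wild type or array 1 or 3 of the L wild type, where 46%, 37.1%, 34.5% and 35.1% of all genes did not overlap in either direction. Hoxd13 no longer passed without array 2 or 3 of the S wild type (adjusted p = 0.0669 and 0.0779) or array 1 or 2 of the L wild type (0.148 and 0.109). Hoxd4 lost its call without array 3 of the S wild type or array 2 or 3 of the L wild type, and Hoxc6 without array 1 or 2 of the L wild type.

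The S wild-type arrays enter both the S/S comparison and the comparison of the wild types, so the values stand side by side only. Relative to the S wild type, Hoxa13 was at -0.91 in S/S and -1.11 in the L wild type, Hoxd13 at -0.92 and -1.0, Hoxd11 at -0.58 and -0.90 and Hoxd12 at -0.55 and -0.45. Group means of Hoxa13 were 8.23 ± 0.09 in the S wild type, 7.32 ± 0.04 in S/S, 7.12 ± 0.43 in the L wild type and 6.62 ± 0.25 in L/L (SD, n = 3). Those of Hoxd13 were 9.5 ± 0.23, 8.58 ± 0.09, 8.5 ± 0.42 and 7.99 ± 0.61 (SD, n = 3). For these genes every S wild-type array lay above the other 9. Hoxb9, Hoxc10 and Hoxc13 did not share this order, since S/S was the highest group for all 3 and the S wild type overlapped the L wild type for Hoxb9 and Hoxc13.

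**Figure D4:**
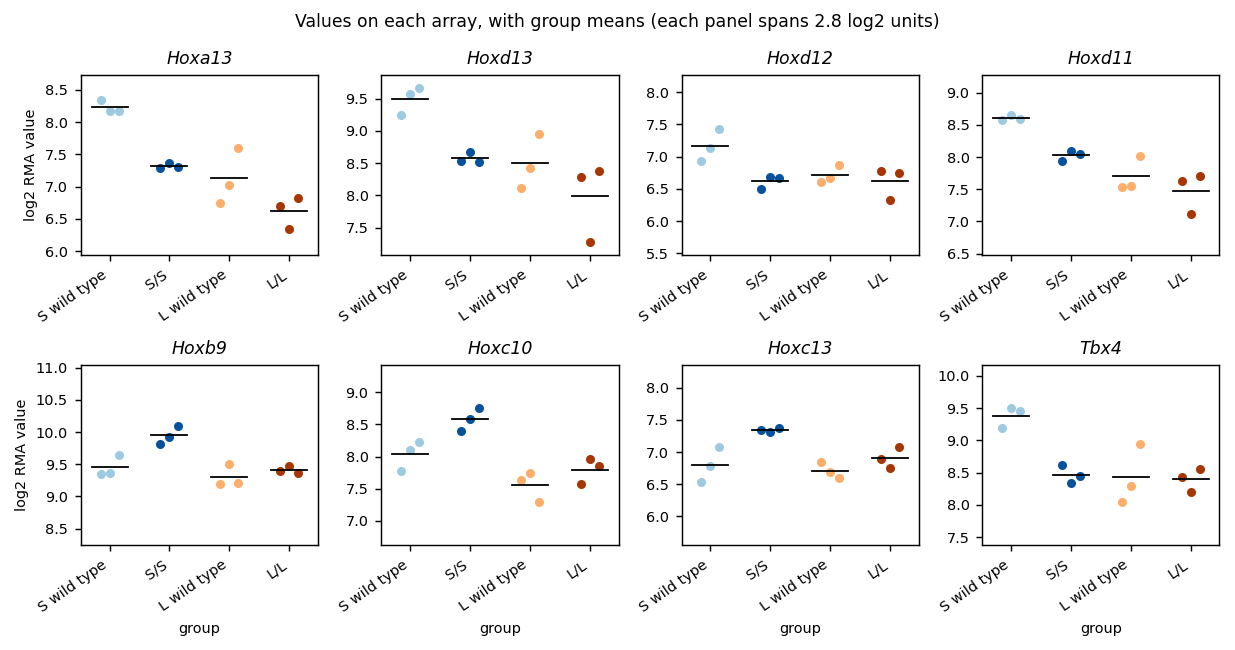
Log2 RMA value on each array (points) and group mean (line) of 7 Hox genes and of Tbx4, a limb regulator outside the clusters, in the 4 groups. Hoxa13, Hoxd13, Hoxd12, Hoxd11 and Tbx4 are highest in the S wild type, and Hoxb9, Hoxc10 and Hoxc13 are highest in S/S.

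Genes that act with or upstream of the Hox genes were read from lists. Of the 9 TALE cofactors measured, all above background on the 12 arrays, 0 passed in either mutant comparison (limma, Benjamini-Hochberg). Meis2, a partner of Hox proteins in the proximal limb, read 9.88, 9.99 and 9.85 in the S wild type and 10.58, 10.28 and 10.36 in S/S. All S/S arrays were higher, by 0.50 (SE 0.12, adjusted p = 0.173), and the L/L difference was -0.01. Between the wild types, Meis2 was higher in the L set by 0.52 (adjusted p = 0.0198), and Pknox2 was lower, with a difference of -0.68 (adjusted p = 0.00968). Of 27 Polycomb genes 0 passed in either mutant, with medians of 0.03 in S/S and 0.01 in L/L. Ezh2, the histone H3K27 methyltransferase, differed by -0.12 in S/S and 0.36 in L/L, and Eed, its partner subunit, by 0.65 (adjusted p = 0.384) and 0.35. Array 1 of the S wild type read 7.02 for Eed against 8.06 and 8.16 on the other arrays of that group. Of 11 trithorax and H3K27 demethylase genes 0 passed in either mutant, with medians of 0.21 and -0.02. Of 13 upstream position signals, such as retinoic acid enzymes, 0 passed in either mutant, with medians of -0.09 and 0.01, and Aldh1a2 (-0.67) and Rara (-0.46) were lower in the L than in the S wild type.

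Limb and trunk regulators outside the clusters were listed to set the posterior Hox values beside other position markers. Of 27, 0 passed in either mutant, with a median of -0.12 and 20 negative in S/S and a median of 0.03 and 9 negative in L/L. Over all genes 42.4% were positive in S/S and 55.9% in L/L. Array 1 of the S wild type weighs on the S/S signs. It read 7.27 for Sall4 against 6.44 and 6.34 on the group's other arrays and 6.4, 6.45 and 6.45 in S/S. For Shh it read 7.11 against 6.56 and 6.49, with 6.58, 6.55 and 6.57 in S/S. For Shox2, which was positive, it read low (7.43 against 8.06 and 8.56, with 8.06, 8.57 and 7.89 in S/S). How many signs hold without that array was not tested. Tbx4, the hindlimb T-box factor, read 9.20, 9.51 and 9.45 in the S wild type, 8.62, 8.34 and 8.45 in S/S, 8.04, 8.29 and 8.95 in the L wild type and 8.44, 8.20 and 8.55 in L/L. The S wild type was above every other array. The S/S difference was -0.92 (SE 0.19, adjusted p = 0.102), the L/L difference -0.03, and that between the wild types -0.96 (adjusted p = 0.00968). Msx1, a factor of undifferentiated limb mesenchyme, read 8.93, 9.0 and 9.01 in the S wild type and 8.26, 8.25 and 8.38 in S/S, lower on every array with a difference of -0.69 (SE 0.21, adjusted p = 0.301). Its L/L difference was -0.43, and that of the L against the S wild type was -0.67 (limma, adjusted p = 0.0607). Grem1, a BMP antagonist of the limb bud, went the other way. It read 8.64, 9.6 and 9.8 in the S wild type and 10.09, 10.44 and 10.21 in S/S, higher on every array by 0.90 (SE 0.27, adjusted p = 0.3), with array 1 of the S wild type lowest, and it was higher in the L than in the S wild type by 0.83 (adjusted p = 0.0724). Dlx5 (-1.19, adjusted p = 0.0029) and Msx2 (-0.68, adjusted p = 0.009) were lower in the L than in the S wild type. Pitx1, the hindlimb selector, differed by -0.03 in S/S and 0.04 in L/L, and Tbx5, the forelimb T-box factor, by -0.18 and 0.13. Of 11 head mesenchyme genes 0 passed in either mutant, and Six2 (-1.03) and Barx1 (-0.48) were lower in the L than in the S wild type.

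The microRNAs encoded inside the clusters are shown because their seeds (bases 2 to 8, in capitals) group them. The miR-10 pair shares 1 seed, the miR-196 pair, which has known targets among Hox transcripts, shares another, and the arms of miR-615 have seeds of their own.
miR-10a-5p: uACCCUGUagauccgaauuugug
miR-10b-5p: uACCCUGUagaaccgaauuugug
miR-196a-5p: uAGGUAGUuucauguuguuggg
miR-196b-5p: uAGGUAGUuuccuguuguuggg
miR-615-3p: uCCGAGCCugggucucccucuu
miR-615-5p: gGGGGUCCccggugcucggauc
The array's probe sets for these genes read the hairpin or its precursor and not the mature microRNA, whose sequences are from RefSeq (GRCm38.p6). Probe sets of Mir10a, Mir10b and Mir196a-2 were never above background, that of Mir196b was above on 8 of 12 arrays and that of Mir196a-1 on 3 of 12. Mir615, in HoxC, was above background on all 12 arrays, at 7.98, 7.6 and 7.6 in the S wild type, 7.62, 7.80 and 7.58 in S/S, 7.87, 7.99 and 7.70 in the L wild type and 8.07, 7.92 and 7.93 in L/L. Its groups overlapped in both sets, with differences of -0.06 in S/S and 0.12 in L/L. Mir196a-1, which lies in HoxB, read 5.35, 5.6 and 5.35 in the S wild type, all under background, and 6.30, 6.10 and 6.12 in the L wild type, of which array 1 was above it. Of the 46 genes measured within or beside the clusters 0 passed in either mutant, with a median of 0.03 in both. Evx2, next to Hoxd13, read 8.43, 7.78 and 8.03 in the S wild type and 7.41, 7.56 and 7.81 in S/S, with overlap, and differed by -0.48 (SE 0.15, adjusted p = 0.325). Evx1, next to Hoxa13, differed by -0.02. Hottip, the long RNA beside Hoxa13, was never above background.

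Markers of other cell types also differed between the groups. The 11 macrophage and blood markers averaged 7.85 to 8.09 on the S wild-type arrays, 8.63 to 8.75 in S/S, 7.38 to 9.34 in the L wild type and 6.98 to 8.59 in L/L. In S/S 10 of 11 were positive with a median of 0.74, and 0 passed, while Hbb-bh1, an embryonic globin, was above background on 0 of 12 arrays. The 8 cartilage and bone markers averaged 7.39 to 7.89, 7.19 to 7.64, 7.0 to 7.09 and 6.96 to 7.06 in the same order of groups, and in the L against the S wild type 4 were lower after adjustment, among them Sox9 (-0.74), Acan (-0.70) and Ibsp (-2.36). Ibsp weighs heavily on these means. It read 5.34, 8.74 and 7.08 in the S wild type, 5.63, 4.68 and 7.12 in S/S and 4.59, 4.82 and 4.66 in the L wild type. The 8 skeletal muscle markers averaged 7.0 to 7.61, 6.85 to 7.07, 6.98 to 7.05 and 7.01 to 7.09, with all 8 negative in S/S, and 7.61 was array 1 of the S wild type, whose other arrays were at 7.05 and 7.0, within the S/S range. The 9 neural markers averaged 6.90 to 7.24, 6.73 to 6.83, 6.74 to 6.95 and 6.67 to 6.88, the 9 endothelial markers 7.20 to 7.28, 7.43 to 7.52, 7.29 to 7.57 and 7.45 to 7.62, and the 8 epithelial markers 6.42 to 6.98, 6.44 to 6.5, 6.44 to 6.53 and 6.46 to 6.60. The endothelial markers did not move together in S/S, where 4 were positive and 5 negative with a median of -0.06. Emcn alone differed by 1.62 there, while Pecam1 and Cdh5 were at -0.18 and -0.17. The highest neural, muscle and epithelial means were all on array 1 of the S wild type, the array with the highest background. The part of these other cells in the Hox differences was not tested.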

How the data were processed

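Total RNA of 12 MEF samples was measured on 1 array each. The authors deposited log2 values that they had made by RMA with Partek, per the series' design text and the submitters' processing notes. Its version, the genome build of the probe sets and whether all arrays were normalized together are not given in the sources used here. RMA corrects background, normalizes between arrays and summarises the probes of a set, so a change in total RNA per cell would not be seen. The number of arrays limits the precision.

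A single probe set per gene was kept (the highest mean over 12 arrays), 19938 genes in all, and limma 3.58.1 in R 4.3.3 fitted 4 group means to all 12 arrays (8 residual and 5.19 prior degrees of freedom), two-sided, with Benjamini-Hochberg adjustment over all genes and a threshold of 0.05. The procedure was checked on simulated data whose planted changes were all larger than any mutant difference of a member. The check therefore does not show whether differences of the members' size could be called. Members and gene lists were chosen with earlier results of these data known. Values on every array are given for the 5 members of smallest p in each direction in each mutant comparison, the 5 of smallest p between the wild types, members that passed, paralogue 13, and the lowest and highest paralogue above background in each cluster. Samples with the same number within a set correlated in their deviations by 0.39, 0.47 and -0.12 (S) and 0.60, 0.06 and 0.36 (L). Those with different numbers correlated by -0.6 to 0.59 (S) and -0.52 to 0.21 (L). The numbers were not taken to pair samples, because the labels name no shared litter or day. These values do not exclude pairing in the L set, where array 1 of both groups carried Y-linked RNA. Alternatives changed the normalization, the probe sets, the filter on dim values, the variance model, the weights of arrays and the arrays included. Leaving out both arrays numbered 1 of the S set was chosen after seeing the data. Promoter and microRNA sequences came from RefSeq tables (GRCm38.p6) and were matched by symbol.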

Additional observations from a re-analysis of the deposited data

Results flagged for a closer look

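The probe set shared by Hoxb8 and Hoxb7, which entered no comparison because it names 2 genes, was above background on every array, with a lowest value of 7.57. It read 7.76, 7.6 and 7.57 in the S wild type, 8.0, 7.73 and 8.06 in S/S, 7.82, 7.88 and 7.75 in the L wild type and 7.69, 7.89 and 7.74 in L/L. The array values do not say which of both genes gave the signal.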

How the results depend on the processing

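The count of members that passed stayed at 0 for L/L and for the difference of the effects under every alternative run. For S/S it was 1 with each set fitted alone (0.221% of all genes), 3 with array quality weights (2.08%) and 0 to 1 with an array left out (0.01% to 0.191%). Members higher without overlap in S/S numbered 7 to 12 with an array left out and 17 without both arrays numbered 1. In these settings 11.8% to 24.6% and 35.9% of all genes did not overlap in either direction. In L/L they numbered 1 after quantile normalization (where 14.7% of all genes did not overlap), 10 without both arrays with Y-linked RNA (where 36.8% of all genes did not overlap, against 14.8%) and 2 to 7 with an array left out (14.8% to 26.6%). Members lower without overlap in L/L numbered 4 without both arrays with Y-linked RNA and 0 to 5 with an array left out. Between the wild types, 7 members became 17 with array quality weights (32.7% of all genes), 3 without both arrays with Y-linked RNA (1.52%), and 4 to 9 with an array left out (2.63% to 10.4%). Members higher without overlap there were 5 without the arrays with Y-linked RNA, 7 without both arrays numbered 1, and 3 to 8 with an array left out. In these settings 34.5%, 46% and 27.6% to 46% of all genes did not overlap in either direction. With the replicate number as a block, 0, 0, 0 and 10 members passed (S/S, L/L, difference of effects, wild types), so the block changed no mutant call. Between the wild types 13.4% of all genes passed with this block, against 8.71% without it. With 99th-percentile background 18 members were above it, against 32. Hoxb13, at background, turned to 0.03 with weights and 0.09 without both arrays numbered 1 in S/S, and to 0.01 and 0.05 between the wild types. With an array left out it ranged from -0.31 to 0.03 (S/S), -0.01 to 0.1 (L/L) and -0.29 to 0.05 (wild types), and Hoxc13 from -0.22 to 0.06 (wild types). The cause was not tested beyond the arrays named. Signals near background limit Hoxa3, Hoxb13, Hoxc11, Hoxc13 and Hoxd1, and on single arrays also Hoxa13, Hoxd12, Hoxc12 and Hoxd4. On array 2 of L/L, Hoxa13 read 6.34 and Hoxd12 6.32 against a background of 6.24. Hoxc12 read 6.27 on array 3 of the L wild type against 6.13, and Hoxd4 6.68 on array 1 of the S wild type against 6.66. How far this narrows their differences was not tested.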
